A study of Homo sapiens with 12 samples.

Results

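The comparison described here sets 2 uninduced lines of RD cells side by side, ish2 against ish, both grown without doxycycline. Members were chosen by sample label, so 6 of the 12 libraries of the study belong to it, 3 of each line, together with every gene row that held enough counts to test, 15206 of 26485. RD is an established cell line derived from a human rhabdomyosarcoma of the fusion-negative class, a tumour of skeletal muscle character. Each line carried a doxycycline-inducible short hairpin against NT5E, which encodes CD73, the ectoenzyme that turns extracellular AMP into adenosine. The ish group (hairpin construct Sh1 in the column headers) and the ish2 group (construct Sh2) had the same parent line and the same culture: 500000 cells were seeded in medium made for tetracycline-controlled systems, left for 24 h to attach and collected after a further 96 h with no inducer. The other 6 libraries came from the same 2 lines with doxycycline at 10 ng/mL for those 96 h. They entered the same gene filter, scaling and fit, and so bear on every SE and adjusted p below. Their own values are given only where the line difference is described for both states.

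No parental cells, non-targeting hairpin or other isolate of either line is among the libraries analysed here, and the sources used here do not say whether a line is a clone or a pool. Hairpin, integration, passage history, culture and library handling therefore cannot be told apart in any difference below. The labels do not state that the 3 replicates of a group were separate cultures, so the p-values measure the spread between these samples, which may be technical. In bulk RNA, fewer cells of a type and less RNA per cell cannot be told apart either.

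An inducible hairpin is transcribed when doxycycline binds a tetracycline-responsive regulator, and is then processed into a small RNA that directs cleavage of its target transcript; expression without inducer is known as leak. Sister lines made with such vectors pass through transduction, selection and expansion separately. Rhabdomyosarcoma cells express the muscle determination factor MYOD1 yet mostly fail to complete differentiation into contractile muscle, and insulin-like growth factor 2 is known as a growth signal in this tumour.

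The markers of the comparison included CA9, a membrane carbonic anhydrase and textbook target of the hypoxia-inducible factors, and CHAC1, a glutathione-degrading enzyme induced by ATF4 in the integrated stress response. Their upstream sequences are shown because the called members of the hypoxia list were mostly lower in ish2 and those of the ATF4 list higher, with EGLN1, an oxygen-sensing prolyl hydroxylase, and ATF3, a stress-induced transcription factor, as a further member of each. The sequences are the 250 bases before the gene start in RefSeq (GRCh38.p14), written 5′ to 3′ on the gene's strand. Capitals mark ACGTG, the core of the hypoxia response element, in CA9 and EGLN1, and TGATGNAAN, the composite site of ATF4 and C/EBP, in CHAC1 and ATF3, each searched on both strands and written as it stands on the gene's strand.
CA9 (chr9:35673678-35673927, plus strand): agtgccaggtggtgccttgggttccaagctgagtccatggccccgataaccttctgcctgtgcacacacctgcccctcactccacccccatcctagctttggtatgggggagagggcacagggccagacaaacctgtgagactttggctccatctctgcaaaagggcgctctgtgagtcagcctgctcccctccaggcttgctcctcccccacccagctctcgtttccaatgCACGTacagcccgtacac
EGLN1 (chr1:231422288-231422537, minus strand): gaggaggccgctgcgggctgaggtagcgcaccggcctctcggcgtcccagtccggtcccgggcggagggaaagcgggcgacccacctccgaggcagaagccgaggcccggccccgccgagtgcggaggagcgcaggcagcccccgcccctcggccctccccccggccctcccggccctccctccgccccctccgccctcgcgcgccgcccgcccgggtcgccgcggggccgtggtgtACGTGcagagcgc
CHAC1 (chr15:40953221-40953470, plus strand): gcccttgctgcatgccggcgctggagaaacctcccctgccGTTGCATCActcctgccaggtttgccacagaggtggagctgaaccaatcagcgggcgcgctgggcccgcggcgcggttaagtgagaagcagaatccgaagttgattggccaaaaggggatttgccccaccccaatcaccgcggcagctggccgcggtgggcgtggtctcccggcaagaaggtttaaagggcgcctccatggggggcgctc
ATF3 (chr1:212565157-212565406, plus strand): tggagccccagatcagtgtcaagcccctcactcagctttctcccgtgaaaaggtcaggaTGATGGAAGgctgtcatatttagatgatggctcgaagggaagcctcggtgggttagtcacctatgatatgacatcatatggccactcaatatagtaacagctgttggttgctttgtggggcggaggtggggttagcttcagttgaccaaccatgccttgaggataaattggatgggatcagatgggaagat
The capitals began 18 bases before the start of CA9, 13 before that of EGLN1, 210 before that of CHAC1 and 191 before that of ATF3. ACGTG was present in 18.7% of all 27195 RefSeq windows of this length and in 23% of the 11680 that belonged to tested genes. Among the 27 tested hypoxia genes, 21 had a window and 14 of those held ACGTG, including 7 of the 9 windows of genes that were lower in ish2. TGATGNAAN was present in 3.17% of all windows and 1.45% of those of tested genes. It was found in 3 of the 29 available windows of the ATF4 list, of which 11 belonged to genes higher in ish2 and 2 of these held it, CHAC1 and ATF3. The 4 windows shown are thus ones that hold their motif, while windows of other called genes, such as PDK1 and DDIT3, do not. A match describes the letters only, and the motifs do not overlap each other in the 4 windows shown.

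The 6 libraries held 26566603 to 31926254 reads assigned to genes, with the ish libraries (30137434 to 31926254) deeper than the ish2 libraries (26566603 to 27789289). Log2 profiles correlated at 0.9986 or more within ish, at 0.9973 or more within ish2 and at 0.9934 to 0.9958 across lines, over genes. The chi-square per degree of freedom was 1.71 to 2.09 between ish replicates, 2.13 between ish2 replicates 1 and 2, and 3.74 and 4.22 between these and ish2 replicate 3, which stood somewhat apart. Reads aligned to several places made up 7.52%, 7.68% and 9.57% of ish libraries 1 to 3 and 7.19% to 7.28% of ish2 libraries. Muscle lineage genes were present in both lines, whereas most defining markers of other cells were near 0: 13 of 15 immune, 9 of 12 endothelial, 10 of 13 epithelial, 11 of 16 neural and 7 of 13 fibroblast genes stayed under 1 CPM (a gene's reads scaled to the normalised library total) in all 6 libraries. The remaining members of these lists were expressed at 1 CPM or more in some library. The endothelial list summed to 117 to 126 CPM in ish and 120 to 134 CPM in ish2, and the fibroblast, neural and epithelial sums are given below. MYF5, a muscle determination factor, had too few reads to test.

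NT5E, the target of both hairpins, was already lower in ish than in ish2 before induction. NT5E stood at 14.9, 18 and 17.3 CPM in the 3 ish libraries and at 24.1, 23.5 and 22.1 CPM in the 3 ish2 libraries. Every ish2 library was above every ish library. Such a lack of overlap, in either direction, was found at 5814 of the 15206 tested genes, and the same applies to the groups described as not overlapping below. The log2 difference, ish2 minus ish, was 0.47 (SE 0.063; adjusted p = 6.14e-07, edgeR quasi-likelihood test over all tested genes), a fold of 1.39. With doxycycline NT5E was 1.94, 1.23 and 1.54 CPM in ish and 14.5, 15.2 and 14.1 CPM in ish2, a log2 difference of 3.21 (SE 0.112; adjusted p = 4.44e-24). An exact two-sided permutation test of the 3 uninduced libraries against 3 gave p = 0.1 for NT5E, and likewise for CA9, PAPPA and CHAC1, which is the smallest value such a design allows.

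Across the transcriptome the lines differed at many genes and by little. Of 15206 tested genes, 3974 (26.1%) passed an adjusted p of 0.05: 2088 (13.7%) were higher and 1886 (12.4%) lower in ish2. The median size of these differences was 0.176 on the log2 scale, and 3097 of them were at most 0.3. Only 64 called genes differed more than 2-fold, 15 higher and 49 lower, and none of these 64 reached 5 CPM in its higher group. Tested against a 1.5-fold difference instead of none (edgeR glmTreat), 2 genes (0.0132%) passed, PAPPA and IGFBP5, with 153 at an unadjusted p under 0.05. The biological coefficient of variation was 2.44%, and the median difference over all tested genes was -0.0038. Counts of list members given below are to be read beside the shares of 13.7% higher and 12.4% lower.

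**Figure D1:**
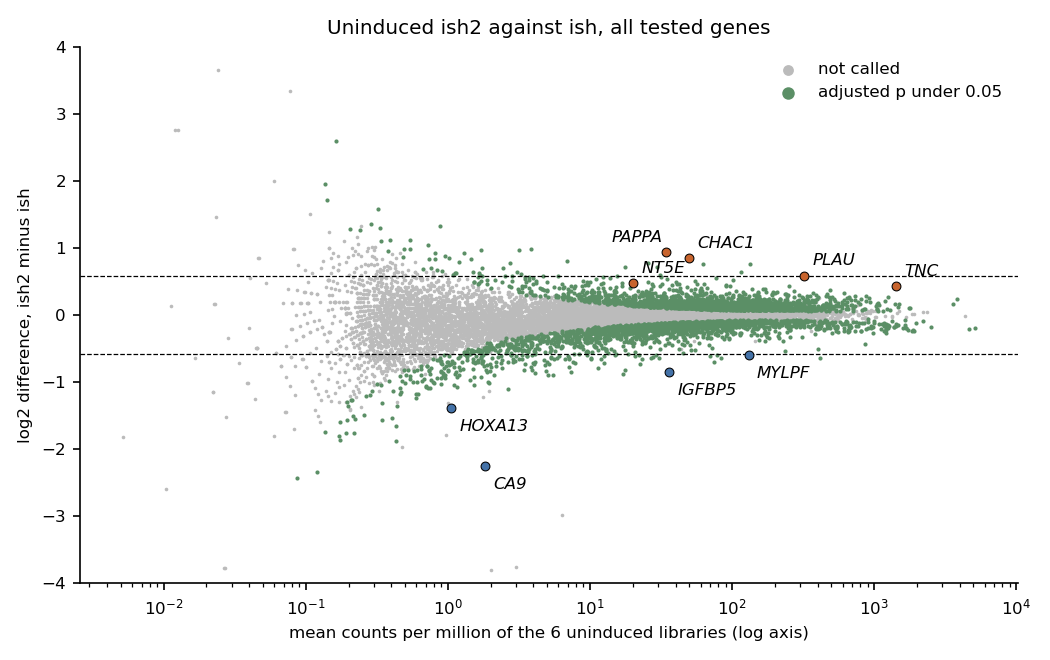
Log2 difference, ish2 minus ish (vertical axis), against the mean CPM of the 6 uninduced libraries (horizontal log axis) for the tested genes, with genes at an adjusted p under 0.05 in green, dashed lines at 1.5-fold and 3 genes outside the vertical range. Differences beyond 2-fold lie at low counts, PAPPA at 0.94 and IGFBP5 at -0.85 stand out at moderate counts, and CA9 at -2.25 lies at low counts.

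Both genes past 1.5-fold belong to the insulin-like growth factor (IGF) axis. PAPPA encodes a secreted metalloprotease that cleaves IGF-binding proteins and so frees IGF, and lies at chr9:116153804-116402322 (GRCh38). It was measured at 21.4, 25.4 and 23.4 CPM in ish and at 47.4, 42.4 and 44.6 CPM in ish2. The 2 groups were far apart, with the lowest ish2 library above the highest ish library. The log2 difference was 0.94 (SE 0.058; adjusted p = 2.09e-11 against no difference and 0.00157 against 1.5-fold, edgeR), a fold of 1.91. IGFBP5, a binding protein among the known substrates of PAPPA, went the other way, with 44.9, 45.0 and 49.4 CPM in ish and 25.7, 26.9 and 24.9 CPM in ish2. Its log2 difference was -0.85 (SE 0.045; adjusted p = 3.29e-16 and 0.00157, edgeR), and its groups did not overlap.

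Of the 18 tested genes of the IGF list, 6 were higher and 4 lower in ish2, with a median of 0.01. STC2, a stanniocalcin known as an inhibitor of PAPPA, was higher, with 564, 517 and 535 CPM in ish and 692, 693 and 657 CPM in ish2 (log2 0.34, SE 0.030). IGFBP4, another PAPPA substrate, was lower, at 9.74 ± 0.205 CPM (SD, n = 3) in ish and 8.13 ± 0.568 in ish2 (log2 -0.26, SE 0.079), a call that was lost with DESeq2 and without ish2 replicate 2. IGFBP2 was lower by a smaller step (log2 -0.20). The ligand IGF2 measured 756, 802 and 773 CPM in ish and 744, 698 and 722 CPM in ish2 (log2 -0.11, adjusted p = 0.00335), its groups close to each other. The receptor IGF1R did not pass the test (log2 -0.06, adjusted p = 0.173), and the adaptor IRS1 was higher (log2 0.20).

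**Figure D2:**
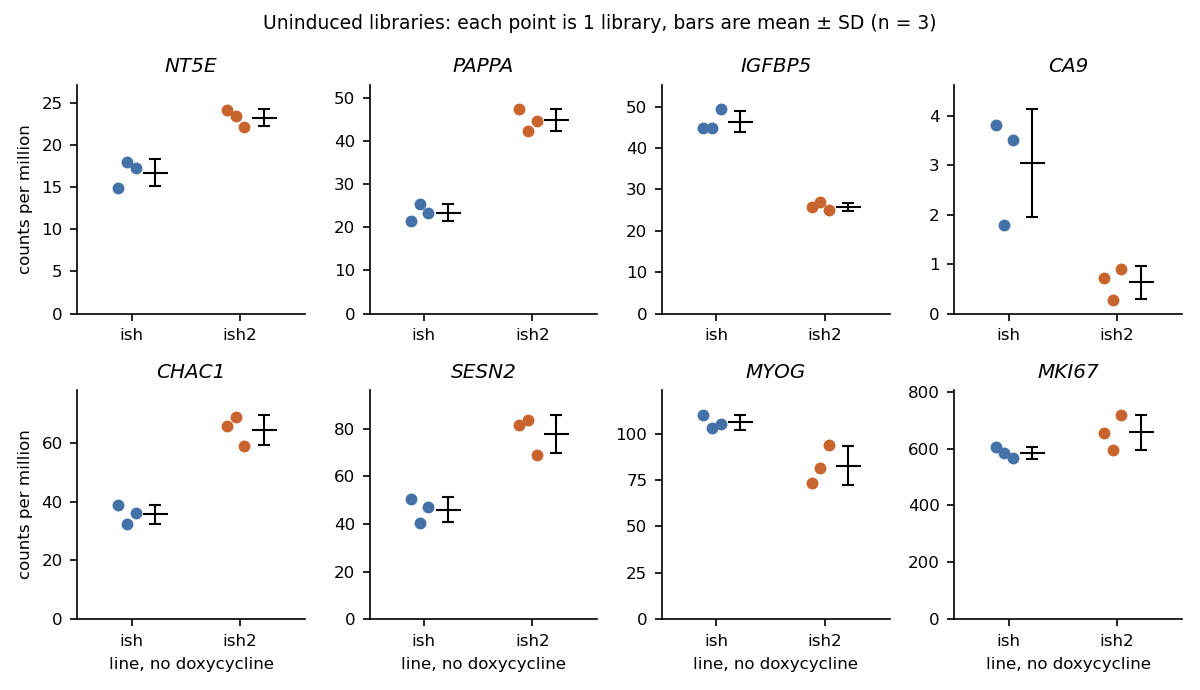
CPM (vertical axes, from 0) of 8 genes in each uninduced library of ish (blue) and ish2 (orange), with mean ± SD of the 3 libraries beside the points. NT5E, PAPPA, CHAC1 and SESN2 are higher in each ish2 library than in any ish library, IGFBP5, CA9 and MYOG are lower, and the points of MKI67 overlap.

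Beyond NT5E, the enzymes, channels and receptors that handle extracellular ATP and adenosine differed little. Of 30 tested genes of that list 6 (20%) were higher and 4 (13.3%) lower, beside 13.7% and 12.4% over all tested genes, with a median of 0.02. The count of higher genes was 3 to 4 when any 1 of the 6 libraries was left out, that of lower genes 1 without ish replicate 2. ALPL, the tissue-nonspecific alkaline phosphatase that can also dephosphorylate AMP, was higher, at 9.05, 11.2 and 11 CPM in ish and 12.1, 13.6 and 13.1 CPM in ish2 (log2 0.30, SE 0.073, adjusted p = 0.00195). SLC29A4, a monoamine and nucleoside transporter, was lower, with 24.8, 24.1 and 22.6 CPM in ish and 19.8, 19.3 and 19.5 CPM in ish2 (log2 -0.28, SE 0.054). ADK, the kinase that returns adenosine to AMP inside cells, differed by 0.13, which did not pass without ish replicate 1, ish replicate 2 or ish2 replicate 3. Of the RNA interference machinery, 6 of 13 genes were higher and 1 lower, with differences from -0.19 to 0.18, and these counts were 2 higher without ish replicate 3 and 2 lower without ish2 replicate 3.

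Of the genes of the integrated stress response, those that passed the test were higher in ish2. This program, in which phosphorylation of eIF2 favours translation of the transcription factor ATF4, raises amino acid supply and redox genes. Of 37 tested genes 14 were higher, none lower and 23 not called, with a median of 0.16 beside -0.0038 over all genes. CHAC1 measured 38.8, 32.4 and 36.0 CPM in ish and 65.6, 68.9 and 58.8 CPM in ish2. Every ish2 library exceeded every ish library by a wide margin. Its log2 difference was 0.85 (SE 0.059; adjusted p = 7.16e-09 against no difference and 0.0989 against 1.5-fold, edgeR). SESN2, a stress-induced inhibitor of mTORC1 and leucine sensor, measured 50.5, 40.3 and 47.3 CPM in ish and 81.5, 83.7 and 68.9 CPM in ish2 (log2 0.76, SE 0.095). In both genes replicate 3 was the lowest of the ish2 libraries.

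Among the amino acid carriers of that list, SLC7A1, a cationic amino acid transporter, was higher (log2 0.36, SE 0.040), as was SLC38A2, a glutamine carrier (0.32, SE 0.029), while SLC7A5, SLC1A5, SLC3A2 and SLC6A9 did not pass the test (0.21, 0.16, 0.17 and 0.19). SLC7A11, the cystine importer, measured 29.6, 26.2 and 29.4 CPM in ish and 49.7, 42.8 and 32 CPM in ish2 (log2 0.55, SE 0.16, adjusted p = 0.0369), and its call was lost in 8 of 13 alternatives, among them leaving out any library other than ish2 replicate 3. The transcription factors ATF3 and DDIT3 were each higher by 0.30 and ATF4 itself by 0.14. TRIB3, a pseudokinase, and ASNS, asparagine synthetase, are also ATF4 targets and did not pass the test. TRIB3 measured 57, 59.2 and 63.3 CPM in ish and 87.1, 87.1 and 45.8 CPM in ish2, and ASNS 387.2, 379.8 and 397 CPM in ish and 365.5, 386.4 and 237.3 CPM in ish2. In both, ish2 replicate 3 lay below the other 5 libraries. The count of higher genes was 26 without ish2 replicate 3, and 9 without ish replicate 2, without ish replicate 3 or without ish2 replicate 1. TRIB3 passed without ish2 replicate 3, and 2 genes of the list were lower without ish2 replicate 2.

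Protein-folding genes of the endoplasmic reticulum that passed the test were mostly higher too. In the unfolded protein response list 11 of 22 tested genes were higher and 3 lower (median 0.12). DNAJB11, an endoplasmic reticulum co-chaperone, measured 98.6, 101 and 100 CPM in ish and 120, 117 and 130 CPM in ish2 (log2 0.29, SE 0.033). PDIA3 and PDIA4, disulfide isomerases, were higher by 0.28 and 0.22, CRELD2, a secreted stress-responsive chaperone, by 0.43, and the chaperone HYOU1 by 0.21. DNAJB9, SEL1L and ATF6, which act in degradation and sensing, were the 3 lower members (log2 -0.15, -0.10 and -0.09), of which none passed without ish replicate 3 and 1 without ish2 replicate 3. In the heat shock and metallothionein list 8 of 17 tested genes were higher and 4 lower, with HSP90AA1, a cytosolic chaperone, and HSPD1, the mitochondrial chaperonin, higher (0.27 and 0.23) and HSPA8 and DNAJB1, cytosolic chaperones, lower (-0.44 and -0.26).

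Of the hypoxia-responsive genes that passed the test, most were lower in ish2. Hypoxia-inducible factors are degraded in oxygen after hydroxylation by EGLN enzymes, and otherwise switch on glycolysis, mitophagy and pH regulation. Of 27 tested genes 12 were lower, 2 higher and 13 not called, with a median of -0.13. CA9 was measured at 3.82, 1.79 and 3.51 CPM in ish and at 0.722, 0.263 and 0.904 CPM in ish2. All ish2 libraries lay under all ish libraries, but the counts were few and the spread wide. The log2 difference of -2.25 (SE 0.459; adjusted p = 0.00573, edgeR) corresponded to a 4.76-fold lower level, and it did not pass the test against 1.5-fold (adjusted p = 1).

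Better-counted members moved the same way by less. BNIP3, a mitophagy receptor, measured 101.9, 98.9 and 103.3 CPM in ish and 62.5, 60.3 and 71.7 CPM in ish2, well apart (log2 -0.64, SE 0.064). NDRG1, a hypoxia-induced stress protein, stood at 26.7 ± 0.625 CPM in ish and 17.6 ± 2.33 in ish2 (SD, n = 3; log2 -0.60), and PDK1, the kinase that holds back pyruvate dehydrogenase, at 52.9 ± 3.41 and 38.6 ± 3.36 CPM (log2 -0.45). EGLN1 measured 46.5, 46.2 and 48.6 CPM in ish and 37.5, 35.4 and 35.1 CPM in ish2 (log2 -0.39, SE 0.041). VEGFA, the angiogenic growth factor, did not pass the test (log2 -0.085, SE 0.062, adjusted p = 0.358). STC2 and ADM, the precursor of adrenomedullin, were the 2 members that were higher.

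Of 25 tested glycolysis genes 8 were lower, 3 higher and 14 not called (median -0.04). The lower ones included SLC2A1, a glucose carrier (log2 -0.30), HK2, a hexokinase (-0.26), ENO2 (-0.40), the regulatory enzyme PFKFB4 (-0.41) and SLC16A3, the lactate exporter, which stood at 105, 99.2 and 98.3 CPM in ish and 77.5, 80.7 and 85.6 CPM in ish2 (log2 -0.31, SE 0.036). PKM, the main pyruvate kinase of these cells, was higher (log2 0.22), as were GPI and PFKP, the last not without ish replicate 2 or ish2 replicate 3. Among 14 tested carbonic anhydrases and acid-base transporters, CA9 and CA11 were lower and 2 genes higher (1 when ish replicate 2 or 3 or ish2 replicate 2 or 3 was left out). These shares, 14.3% lower and 14.3% higher, lay near the 12.4% and 13.7% over all tested genes.

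Genes of DNA replication that passed the test were higher in ish2. Of 39 tested genes 30 were higher and none lower, with a median of 0.21, and the count of higher genes was 23 to 34 over 13 alternative analyses. RRM2, a subunit of ribonucleotide reductase, measured 251.3, 227.8 and 236.5 CPM in ish and 294.8, 293.3 and 329.7 CPM in ish2 (log2 0.36, SE 0.061), with replicate 3 the highest of the ish2 libraries. E2F2, a transcription factor of the G1 to S transition, was at 27.1, 25.3 and 27.2 CPM in ish and 34.8, 33.0 and 40.0 CPM in ish2 (log2 0.44, SE 0.064). CDC45 (0.40) and TK1 (0.39) followed, and MCM2 to MCM7, the replicative helicase, were higher by 0.13 to 0.30. Of these, MCM2 to MCM5 did not pass without ish replicate 2, MCM3 and MCM4 without ish replicate 3, and MCM3 without ish2 replicate 3.

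Of 36 tested mitotic genes 14 were higher and 2 lower, with a median of 0.08, and the higher genes numbered 5 without ish2 replicate 3, 8 without ish replicate 2 and 9 without ish replicate 3. The 2 lower genes were 1 without ish replicate 2 or 3 or ish2 replicate 1 or 2. MKI67, the proliferation marker, was at 606, 583 and 565 CPM in ish and 655, 596 and 719 CPM in ish2, overlapping between lines (log2 0.17, adjusted p = 0.0545). Over 13 alternatives its adjusted p was 2.21e-06 to 0.129, and it passed in 7, among them those without ish2 replicate 2 or 3. Among G1 regulators CCND2, cyclin D2, was higher, with 92.8, 89.2 and 90.2 CPM in ish and 149, 140 and 134 CPM in ish2 (log2 0.64, SE 0.048). CDKN1A, the CDK inhibitor p21, was also higher, at 115, 98.1 and 104 CPM against 138, 144 and 122 CPM (log2 0.35, SE 0.071, adjusted p = 0.00592).

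Sterol and fatty acid synthesis genes are the targets of the SREBP factors. Of 30 tested genes 22 were higher and none lower, with a median of 0.17. FASN, the fatty acid synthase, measured 676.6, 652.2 and 648.4 CPM in ish and 778.4, 789.4 and 839.9 CPM in ish2 (log2 0.28, SE 0.029). ACAT2, a thiolase that makes acetoacetyl-CoA, measured 84.8, 71.2 and 76 CPM against 101.6, 96.2 and 118.4 CPM (log2 0.45, SE 0.085, adjusted p = 0.00459). In both genes every ish2 library lay above every ish library.

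Cytosolic ribosomal protein genes were lower in ish2 almost without exception. Of 51 tested genes 49 were lower and none higher, with a median of -0.17 and a range of -0.26 to -0.03. RPS14 measured 706, 724 and 714 CPM in ish and 604, 612 and 606 CPM in ish2 (log2 -0.23, SE 0.023), and RPL10A 694, 708 and 708 CPM against 593, 609 and 586 CPM (log2 -0.24, SE 0.024). The groups did not overlap in either. Ribosomal protein genes have many near-identical pseudogenes, so their counts depend on how reads with several alignments were treated, and the share of such reads was higher in ish replicate 3. Without that library 46 were lower, while over 13 alternatives the count was 45 to 50. Of 60 nuclear-encoded respiratory chain genes 16 were higher and 1 lower (2 without ish2 replicate 3), with a median of 0.04.

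**Figure D3:**
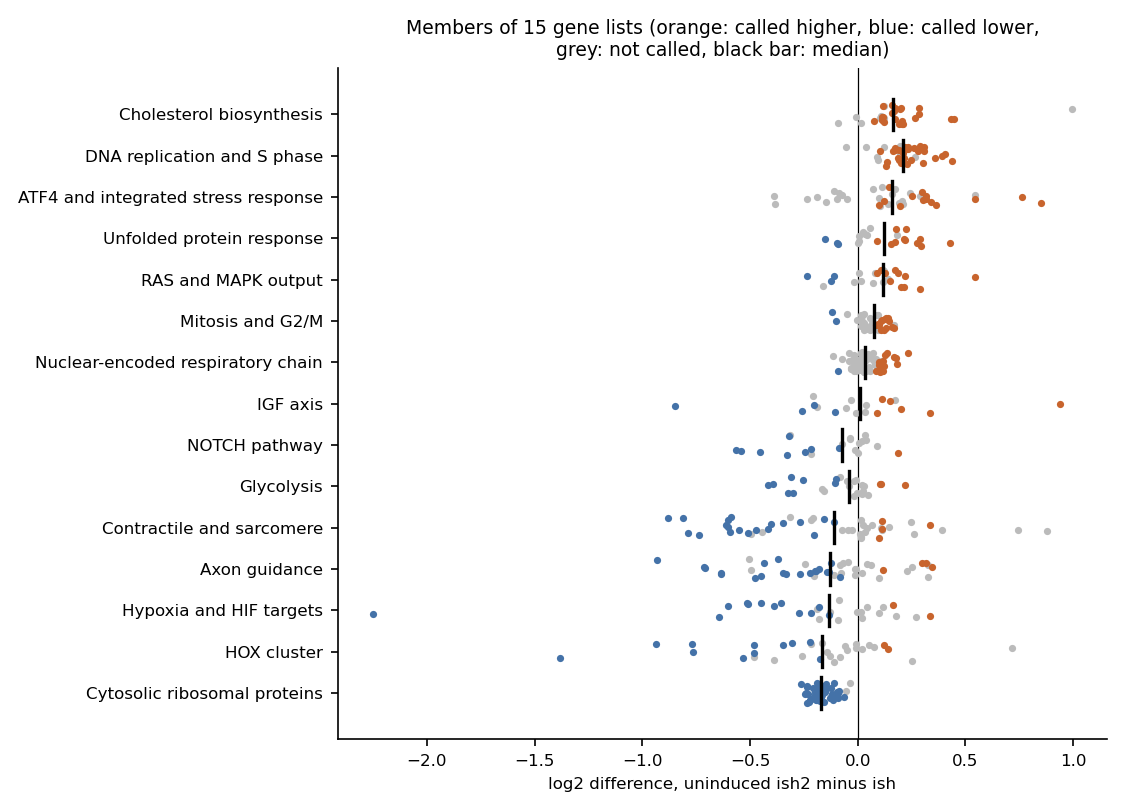
Log2 difference, uninduced ish2 minus ish (horizontal axis), of each tested member of 15 gene lists, with called members in orange (higher) or blue (lower), others in grey and black bars at the list medians. DNA replication, cholesterol and ATF4 genes lie to the right with medians of 0.21, 0.17 and 0.16, and ribosomal protein and HOX genes to the left with a median of -0.17 each.

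Of the contractile genes that passed the test, most were lower in ish2. Of 47 tested sarcomere genes 19 were lower, 4 higher and 24 not called, with a median of -0.11. MYLPF, the fast skeletal regulatory light chain, measured 164, 149 and 160 CPM in ish and 97.0, 108 and 107 CPM in ish2 (log2 -0.60, SE 0.041). CKM, muscle creatine kinase, measured 22, 20.6 and 23.9 CPM against 11, 12.7 and 12.5 CPM (log2 -0.88, SE 0.080), and UNC45B, a myosin chaperone, 28.8, 26.7 and 28.7 CPM against 16, 17.7 and 16.9 CPM (log2 -0.73, SE 0.051). None of these groups overlapped. The troponin gene TNNI1 (log2 -0.60) and embryonic myosin MYH3 (-0.27) were lower, whereas perinatal myosin MYH8 (0.34) and TNNT1 (0.11) were higher. Without ish2 replicate 3 MYH8 did not pass and 2 genes of the list were higher.

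Among myogenic regulators 10 of 27 were higher and 6 lower. MYOG, the factor that drives terminal differentiation, measured 110, 103 and 105 CPM in ish and 73.4, 81.5 and 93.9 CPM in ish2 (log2 -0.36, SE 0.076, adjusted p = 0.00754). Its ish2 libraries spread more than the ish libraries, but none reached them. MYOD1, which acts before MYOG, was higher, at 114, 107 and 115 CPM in ish and 132, 130 and 139 CPM in ish2 (log2 0.25, SE 0.032). TMEM8C (myomaker), needed for myoblast fusion, was lower (log2 -0.39, SE 0.10). PAX7, a satellite cell factor, was lower (log2 -0.13; adjusted p = 0.05 without ish replicate 3), and DES, the muscle intermediate filament, did not pass the test (log2 0.05, adjusted p = 0.213).

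HOX genes record position along the body axis. Of 31 tested HOX genes 11 were lower, 2 higher and 18 not called, with a median of -0.17. In HOXA on chromosome 7, 6 of 10 tested genes were lower and none higher (median -0.51), against 2 of 9 lower and 2 higher in HOXB, 3 of 9 lower in HOXC and none of 3 in HOXD. HOXA10 measured 15.5, 14.6 and 15.7 CPM in ish and 10.0, 11.2 and 10.5 CPM in ish2 (log2 -0.53, SE 0.064), and HOXA11 12.7, 12.5 and 13 CPM against 8.74, 9.05 and 9.54 CPM (log2 -0.48, SE 0.067). At lower counts HOXA13 measured 1.35, 1.82 and 1.43 CPM in ish and 0.578, 0.563 and 0.615 CPM in ish2 (log2 -1.38, SE 0.238), and HOXA5 4.84, 4.59 and 5.03 CPM against 3, 2.74 and 2.75 CPM (log2 -0.77, SE 0.12). HOXC13 (log2 -0.48) and HOXB8 (-0.35) were lower, while HOXB2 was higher (0.14). Leaving out any library other than ish2 replicate 3 left 1 higher HOX gene. HOX genes overlap their neighbours and antisense transcripts, and the sources used here do not give the strand setting of the counting, so reads of overlapping genes may be shared.

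**Figure D4:**
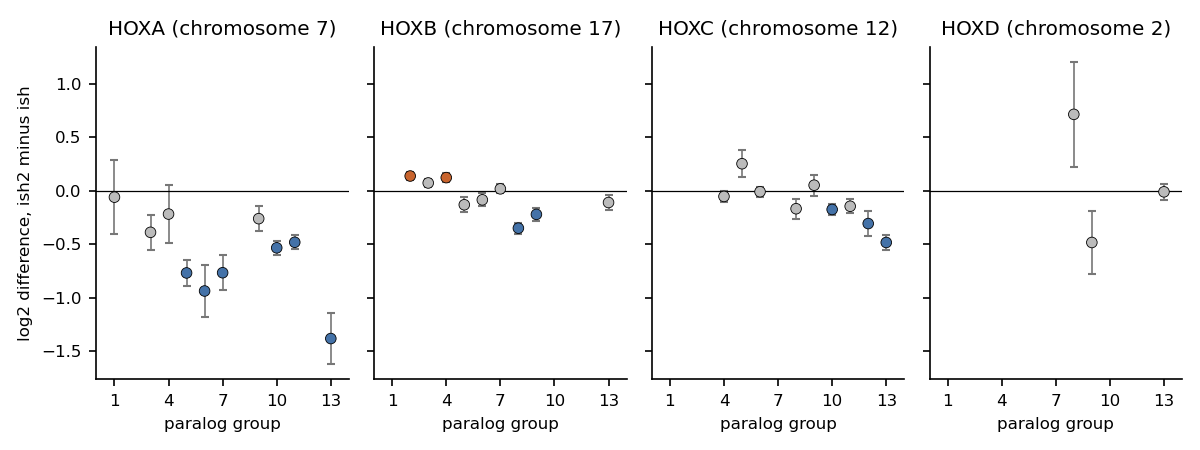
Log2 difference, uninduced ish2 minus ish, with its SE (vertical axes) for the tested genes of the 4 HOX clusters by paralog group (horizontal axes), in blue where called lower, orange where called higher and grey where not called. HOXA genes lie below 0 throughout, down to -1.38 at HOXA13, whereas HOXB genes lie between -0.35 and 0.14.

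Other developmental lists differed in how their calls fell. In the axon guidance list 20 of 44 tested genes were lower and 4 higher (median -0.13), with the semaphorins SEMA6A (log2 -0.45) and SEMA3C (-0.44) lower and SEMA3A (0.35) higher. UNC5D, a netrin receptor, measured 34, 38.8 and 38.1 CPM in ish and 24.6, 24.8 and 22 CPM in ish2 (log2 -0.64, SE 0.060). In the NOTCH list 8 of 21 were lower and 1 higher. The lower genes were targets, modifiers, ligands and receptors. HES4, a target, measured 24.4, 24.9 and 24.8 CPM in ish and 15.7, 18 and 17.2 CPM in ish2 (log2 -0.54, SE 0.055). NRARP, a feedback inhibitor (log2 -0.56), HES1 (-0.45), the glycosyltransferase LFNG (-0.32) and the ligand DLL1 (-0.22) were also lower, and NOTCH2 was the 1 higher member (0.19). Among WNT feedback genes and inhibitors 4 of 23 (17.4%) were higher and 5 (21.7%) lower, beside 13.7% and 12.4% over all tested genes (median -0.09).

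Output genes of RAS and MAPK signalling, feedback genes among them, leaned higher, with 11 of 24 higher and 3 lower (1 without ish2 replicate 3; median 0.12). FOSL1, an AP-1 subunit, measured 9.12, 7.72 and 9.84 CPM in ish and 13.2, 13.2 and 12.5 CPM in ish2 (log2 0.54, SE 0.079), and the phosphatases DUSP4 and DUSP6 were higher by 0.29 and 0.13. HMGA2, a chromatin protein of embryonic cells, was lower (log2 -0.24). Of 41 tested interferon-stimulated genes 6 (14.6%) were higher (3 without ish2 replicate 1) and 9 (22%) lower, beside 13.7% and 12.4% over all tested genes. IFIT1 was lower (log2 -0.26) and OAS3 higher (0.39).

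Genes of secreted proteases, matrix and adhesion differed in both directions. PLAU, the urokinase that activates plasmin, measured 255, 257 and 257 CPM in ish and 402, 389 and 364 CPM in ish2 (log2 0.59, SE 0.028, adjusted p = 2.62e-17). TNC, the matrix glycoprotein tenascin C, was at 1227, 1192 and 1206 CPM in ish and 1653, 1611 and 1618 CPM in ish2 (log2 0.43, SE 0.024). In contrast MMP2, a gelatinase, was at 17.2, 19.5 and 17.4 CPM in ish and 11.6, 12.1 and 12 CPM in ish2 (log2 -0.60, SE 0.065), and the elastic fibre proteins FBLN5 and FBLN2 were lower (log2 -0.56 and -0.51). Matrix proteases and their inhibitors counted 10 higher and 8 lower of 32, matrix glycoproteins and proteoglycans 8 higher and 13 lower of 42, collagens 8 higher and 10 lower of 33, and integrins and laminins 3 higher (1 without ish replicate 3, ish2 replicate 1 or ish2 replicate 2) and 9 lower of 27.

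COL3A1 was higher by 0.24 and COL1A1 by 0.32, and these fibrillar collagens also carry the fibroblast marker list, whose summed level was 3860 to 3950 CPM in ish and 4550 to 4580 CPM in ish2. Of the other 11 genes on that list, THY1 was lower (log2 -0.11), PDGFRB, TAGLN and PRRX1 did not pass the test (-0.001, 0.085 and -0.196), and PDGFRA, DCN, LUM, FAP, ACTA2, TWIST1 and DPT were under 1 CPM in every library. The neural list summed to 394 to 395 CPM in ish and 444 to 462 CPM in ish2, through MAP2 and TUBB3, with SOX10, S100B and GFAP under 1 CPM. The epithelial list summed to 33.1 to 34.8 and 38.4 to 44.0 CPM, with KRT18 the 1 member called, and EPCAM and CDH1 under 1 CPM.

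Because so few genes passed the 1.5-fold test, the 12 largest called differences each way among protein-coding genes with at least 5 CPM and no overlap were also named, a choice made after the values were seen. On the higher side they included MME, the neprilysin peptidase CD10, with 19.0, 19.3 and 18.6 CPM in ish and 32.3, 34.2 and 31.6 CPM in ish2 (log2 0.78, SE 0.048), and CLU, the chaperone clusterin, with 103, 97.0 and 96.0 CPM against 159, 166 and 178 CPM (log2 0.76, SE 0.042). LTBP1, which anchors latent TGF-beta, was higher by 0.72, EPHA3, an ephrin receptor, by 0.81, and TRPV3, a cation channel, by 0.71. On the lower side stood ITGB3, the integrin beta-3 subunit, with 6.52, 6.96 and 6.40 CPM in ish and 4.41, 3.60 and 2.67 CPM in ish2 (log2 -0.89, SE 0.12). PDE4C, a cAMP phosphodiesterase, was lower (log2 -0.90), as was the matrix protease ADAMTS10 (-0.86). TSPEAR was lower (log2 -0.83) but overlaps antisense genes whose reads may be counted with it.

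Every chromosome held genes called in each direction, in uneven shares. Chromosome 2 had 22.1% of its 986 tested genes higher and 8.52% lower, chromosome 16 had 7.92% of 682 higher and 18.6% lower, and chromosome 6 had 8.21% of 755 higher and 15.1% lower, beside 13.7% and 12.4% over all tested genes. Of 14867 tested genes placed on a chromosome, the median log2 difference per chromosome ran from -0.039 to 0.033, and from -0.026 to 0.045 among genes with a mean of at least 10 CPM.

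With doxycycline the same 2 lines differed far more, in 6 libraries that the uninduced contrast does not compare but that entered the same fit. Of the 15206 genes 12357 (81.3%) were called, 6233 (41%) higher and 6124 (40.3%) lower in ish2, and 3509 of them passed 2-fold. Genes called in both states with the same sign numbered 2244, which is 56.5% of the uninduced calls and 18.2% of the induced calls. Another 1248 were called with opposite signs, 31.4% and 10.1%. NT5E knockdown differed between the lines in these libraries, as given above.

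Of 51 ribosomal protein genes 47 were called lower in induced ish2 than in induced ish, and 45 were lower in ish2 in both states. Another 2 were lower uninduced but higher induced. The median line difference was -0.17 uninduced and -0.45 induced. Of 47 tested sarcomere genes 45 were called lower in induced ish2 than in induced ish, the 19 that were lower uninduced among them. They also included 3 of the 4 that were higher uninduced. The induced median line difference was -3.64, with MYLPF at -5.10 and CKM at -5.76. Of 37 tested ATF4 genes 25 were called higher and 6 lower in induced ish2 than in induced ish. Of the 14 higher uninduced, 11 were also higher induced and 2 were lower induced. CHAC1 was among those 11, at 38.8, 32.4 and 36.0 CPM in ish against 65.6, 68.9 and 58.8 in ish2 uninduced. Induced, CHAC1 measured 28.3, 28.5 and 29.1 CPM in ish against 78.8, 81.2 and 84.8 in ish2.

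Among genes called in both states, the hypoxia list had 7 with opposite signs, 4 lower in both and 2 higher in both. The HOX list had 9 with opposite signs, 1 lower in both and 2 higher in both, and the sterol list had 11 with opposite signs and 7 higher in both. The hypoxia list had 16 of 27 higher and 8 lower in induced ish2 than in induced ish (median 0.57), with NDRG1 at 2.89 and BNIP3 at 0.92. Induced CA9 measured 1.08, 1.1 and 0.739 CPM in ish and 1.92, 0.742 and 1.31 CPM in ish2, overlapping (adjusted p = 0.395, edgeR). In the same induced comparison HOX genes were higher in ish2 for 26 of 31 (median 1.09), with HOXA13 still lower at -1.13. Sterol genes were higher in induced ish2 for 8 and lower for 16 of 30 (median -0.16). IGFBP5 also turned, from lower in uninduced ish2 to 61.4, 58.3 and 57.5 CPM in ish and 102.5, 106.3 and 104.9 CPM in ish2 (log2 0.82), while PAPPA stayed higher, at 8.11, 6.91 and 7.60 CPM in ish and 80.3, 82.2 and 89.4 CPM in ish2 (log2 3.48).

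**Figure D5:**
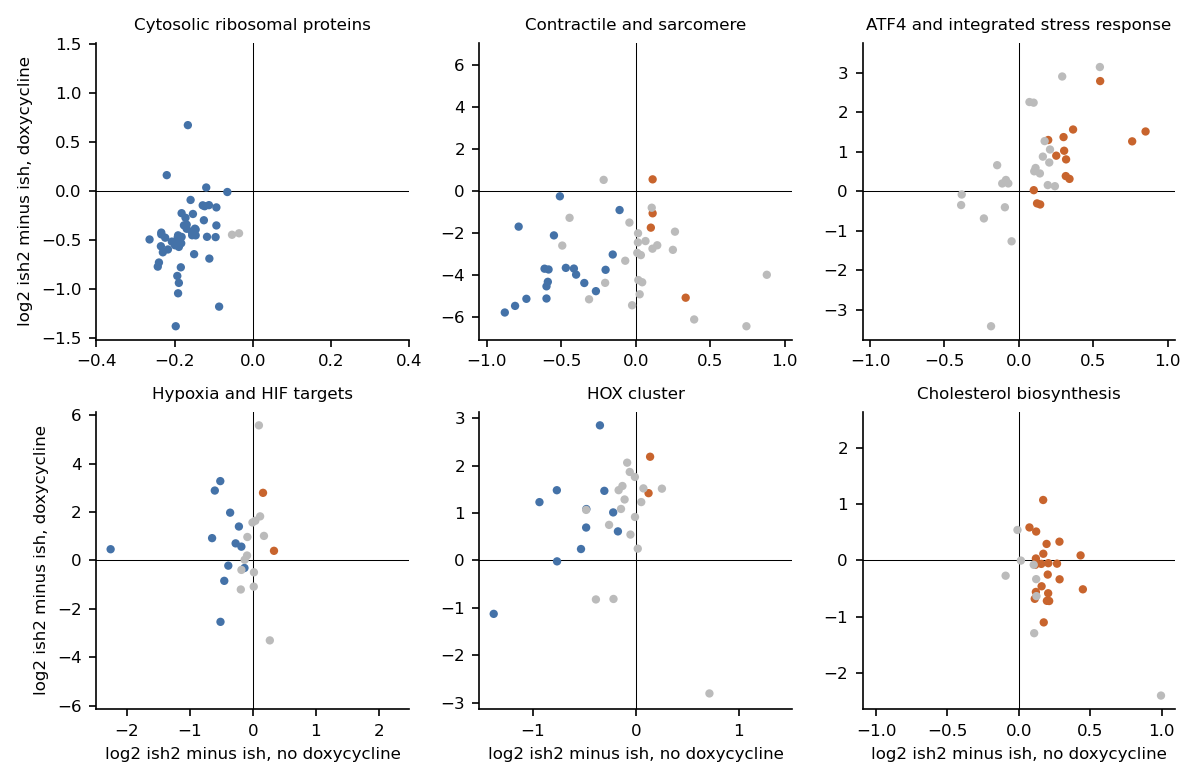
Log2 difference, ish2 minus ish, without doxycycline (horizontal axes) and with it (vertical axes, scaled per panel) for the tested members of 6 gene lists, coloured by the uninduced call (orange higher, blue lower, grey not called). Ribosomal protein and called-lower sarcomere genes fall mostly in the lower left, ATF4 genes called higher mostly in the upper right, and most HOX genes called lower uninduced in the upper left.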

How the data were processed

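The authors deposited a table of raw read counts per gene symbol for 12 libraries, with no normalization. Per the labels' protocols these were stranded mRNA libraries, sequenced as 75-base paired-end reads. STAR 2.7.3a, Trim Galore 0.6.4, Subread 1.6.3, featureCounts and GRCh38 are named, with no roles, per the submitters' processing notes. Annotation and strand setting: not given in the sources used here. Rows for unassigned reads, 5 in all, were kept out of the fits: in the 6 uninduced libraries, reads with no feature were 11.5% to 12% and ambiguous reads 2.57% to 2.65%. Titles and column headers give matching treatments and replicate numbers; header construct Sh1 was taken as ish, the only other title being ish2.

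Genes kept by filterByExpr (15206 of 26485) were scaled by TMM and fitted with 4 group means over all 12 libraries by edgeR 4.0.16 (glmQLFit, robust, 8 residual degrees of freedom; R 4.3.3, limma 3.58.1). The contrast ish2 minus ish without doxycycline was tested by glmQLFTest and against 1.5-fold by glmTreat, with Benjamini-Hochberg adjustment over all tested genes and a threshold of 0.05 ("called"). CPM use TMM-scaled library sizes. SE is the log2 difference over the square root of the F statistic, so it is approximate. The scripts were tested on simulated data. DESeq2 1.42.0 served as an alternative.

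The members, the 45 gene lists and the alternatives were chosen with earlier results of these data known. Of 1330 list entries 1328 matched the table, 2 through another symbol; 1171 of the 26485 symbols matched no reference table. Named genes are CA9, PAPPA, CHAC1 and NT5E, genes past 1.5-fold with at least 5 CPM and no overlap, the 4 members of each list with the lowest adjusted p, 7 tumour genes (MYOD1, MYOG, MYF5, DES, MKI67, IGF2, PAX7), and the largest differences described in the report. A further 48 list members were chosen after their values were seen. A few named genes are not reported here. Positions are from GENCODE v29. Same-numbered libraries of the lines did not deviate together (correlations -0.0251, 0.045 and -0.0183), so the fit is unpaired. Figures used matplotlib.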

Additional observations from a re-analysis of the deposited data

Results flagged for a closer look

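The line difference itself, ish2 minus ish, differed between the uninduced and the induced libraries for each of the 5 genes whose interaction is given here. The interaction was tested by the edgeR quasi-likelihood test with 3 libraries per group and adjusted over all tested genes. The values are the log2 difference with doxycycline minus that without it. For NT5E it was 2.74 (SE 0.135; adjusted p = 2.91e-19), from 0.47 to 3.21. For PAPPA it was 2.54 (SE 0.093; adjusted p = 1.27e-18), from 0.94 to 3.48. For CHAC1 it was 0.66 (SE 0.084; adjusted p = 1.14e-06), with ish2 higher in both states. IGFBP5 changed side by 1.67 (SE 0.058; adjusted p = 2.01e-24), from -0.85 to 0.82. CA9 changed by 2.72 (SE 0.68; adjusted p = 0.00487), from -2.25 to 0.46, on few reads in all groups. Interaction results are given for these 5 genes only. The share of all tested genes that passed is not given, so these 5 are not shown to be unusual. The 2 lines also differed in how far NT5E fell with doxycycline.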

How the results depend on the processing

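Over 13 alternatives the number of called genes was 2985 to 4094 against 3974, lowest without ish replicate 2. With only the 6 uninduced libraries in the filter and fit, 3546 of 14572 tested genes were called. The share of calls that were higher in ish2 was 52.5%, 59.3% with RLE size factors, 46.1% with library size alone and 62.1% with DESeq2, which called 3227. Genes past 1.5-fold numbered 2; they were 7 with no low-count filter, 5 with the replicate block, 3 with RLE and 3 with DESeq2, and leaving out each library in turn gave 2 to 4. PAPPA and IGFBP5 passed in every one of these. CHAC1 passed with no low-count filter, with DESeq2, without ish replicate 1 and without ish2 replicate 3. CA9 passed with the replicate block and without ish replicate 2, and neither passed in the main fit. The other genes that passed in some were MME, CKM, CLU and MYBPH. The replicate block called 3918 genes, and no replicate correlated best with its own number. Of 218 called genes among 236 named, 24 lost their call in some alternative and none reversed. The 4 uncalled ones MKI67, TRIB3, ENG and PRRX1 passed in some. Calls were lost in 68 gene and alternative pairs, where all 236 named genes, called or not, made up 3059 pairs. Induced calls numbered 11619 to 12931 against 12357. Depth limits CA9 and the lower HOX genes, which rest on few reads.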

Other observations

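Transcripts of some genes of other growth factor families also differed between the uninduced lines, in both directions, as values outside the groups above. Signalling itself was not measured. Among 33 tested genes of the BMP and TGF-beta list 8 were higher and 7 lower in ish2 (median 0.02). NOG, a secreted BMP antagonist, was at 35.8, 36.7 and 33.6 CPM in ish and 50.9, 51.8 and 44.5 CPM in ish2 (log2 0.47, SE 0.046; adjusted p = 2.1e-09, edgeR). TGFBI, a TGF-beta-induced matrix protein, was lower, at 186, 205 and 193 CPM against 158, 161 and 149 CPM (log2 -0.32, SE 0.032). The higher genes numbered 4 without ish replicate 3 or ish2 replicate 2, and 5 without ish replicate 1 or ish2 replicate 1.

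Cadherin 11, a mesenchymal adhesion protein encoded by CDH11, was lower in ish2, at 28.8, 27.4 and 29 CPM in ish and 18.1, 18.7 and 17.4 CPM in ish2 (log2 -0.65, SE 0.049; adjusted p = 5.87e-12, edgeR). PCDH7, a protocadherin, was higher, at 419, 412 and 404 CPM against 512, 497 and 505 CPM (log2 0.29, SE 0.024). VGF, a secreted neuropeptide precursor induced by cAMP, was lower in uninduced ish2 (14, 17.1 and 15.6 CPM against 9.86, 11.6 and 7.27 CPM, log2 -0.71, SE 0.125). With doxycycline it was higher in ish2 than in ish (log2 5.47), though its interaction result is not given here.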
